A study of Mus musculus with 28 samples.

Results

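Marcks, Fscn1, Myh10, Wasf1, Fnbp1l, Espn, Myo6 and Dsp encode proteins that bind actin, bend membranes or anchor filaments, and they were followed in mouse T cells kept with or without a histone deacetylase inhibitor. These 8 genes, of 18193 with a probe set of their own, were chosen because they differed between the middle drug doses and the control arrays. Each gene is represented by its probe set with the highest mean over the 28 arrays, and all 8 had one. Values are GCRMA levels read as log2 units. A level of 4.27, which is the mode of all values plus 2, was taken as the detection level, since GCRMA places unexpressed probe sets near the mode. The 8 genes differ in how far they clear it. Marcks, Fscn1 and Myh10 lay over it on all 28 arrays, Myo6 on 22, Fnbp1l and Dsp on 20 each, Wasf1 on 17 and Espn on 7.

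The cells were CD4 and CD8 T cells taken from mouse spleen by negative selection, and the labels give no strain, sex or age. All were stimulated for 2 days with plate-bound anti-CD3 (3 µg/ml) and soluble anti-CD28 (5 µg/ml), and drug was then added for 1 day. Romidepsin was given at 2, 10 or 30 nM and vorinostat at 0.5, 2 or 10 µM, and the control had neither, with no vehicle named. With both cell types this makes 14 groups of 2 arrays, so n = 2 for each group. The labels do not say which animals the 2 arrays of a group came from.

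T cells rebuild their actin cortex when they migrate, when they form a contact with another cell and when they divide. MARCKS holds the phospholipid PIP2 and actin at the inner face of the membrane. WAVE proteins switch on the Arp2/3 complex to make branched actin, and F-BAR proteins curve the membrane and recruit such activators. Fascin and espin bind filaments into parallel bundles, non-muscle myosin II contracts them, and myosin VI walks toward their minus end and carries vesicles inward. Desmoplakin ties intermediate filaments to desmosomes, the junctions of epithelia and heart muscle. Romidepsin and vorinostat block histone deacetylases, the enzymes that take acetyl groups off histones and other proteins.

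Over all genes, 8445 to 9320 lay over the detection level per array. Cd4 lay at 2.39 to 8.55 in the CD4 arrays, over the level in 11 of 14, and at no more than 2.34 in the CD8 arrays. Cd8a lay at 9.34 to 11.99 in the CD8 arrays and at 4.0 to 6.07 in the CD4 arrays. Markers of B cells, 6 genes with a probe set, were lower in the drug groups. The log2 of their summed linear levels was 8.21 to 11.04 in the CD4 controls and 5.44 to 6.85 at 30 nM romidepsin, and 9.34 to 10.77 and 5.45 to 7.82 in CD8 cells, and the part of this in the results was not tested. The replicate numbers behave as batches that the labels do not explain. Replicate 1 arrays had Eif2s3y, a Y-linked gene, at 11.36 to 12.02 and Xist at 2.27, and replicate 2 arrays had Xist at 11.69 to 12.72 and Eif2s3y at 2.25. The 2 arrays of a group thus came from different animals, and the spread behind each p-value includes the difference between the replicate numbers. Changes are therefore also given within each replicate number. The p-value of a fit with that number as a block is given where it changes the call. The difference between the 3' and 5' probe sets of beta-actin, a sign of RNA quality, was 0.75 to 0.98 at the low doses and 0.90 to 1.62 at the top doses. It moves with the comparison of doses below, and its part in the results was not tested.

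The stretches of DNA just upstream of 5 of the genes are shown, those of Wasf1, Fnbp1l, Myh10 and Dsp because their 14 group means moved together, with correlations of 0.743 to 0.977 between the genes, and that of Myo6 because it ran opposite ways in the cell types. They are the 250 bases before the annotated start in mouse build GRCm38.p6, 5′ to 3′ on the strand of the gene, from RefSeq. Capitals mark each GC box, the letters GGGCGG on either strand, to which transcription factors of the Sp family bind.
Wasf1: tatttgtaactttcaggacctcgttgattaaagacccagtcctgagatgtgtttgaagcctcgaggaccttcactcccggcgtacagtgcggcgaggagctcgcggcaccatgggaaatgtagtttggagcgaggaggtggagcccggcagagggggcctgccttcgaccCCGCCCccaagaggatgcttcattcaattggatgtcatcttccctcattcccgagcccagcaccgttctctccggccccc
Fnbp1l: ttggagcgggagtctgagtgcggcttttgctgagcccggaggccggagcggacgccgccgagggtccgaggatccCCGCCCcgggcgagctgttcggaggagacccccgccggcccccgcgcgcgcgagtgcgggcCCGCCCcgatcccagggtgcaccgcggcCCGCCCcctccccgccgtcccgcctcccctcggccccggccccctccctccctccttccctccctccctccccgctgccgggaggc
Myh10: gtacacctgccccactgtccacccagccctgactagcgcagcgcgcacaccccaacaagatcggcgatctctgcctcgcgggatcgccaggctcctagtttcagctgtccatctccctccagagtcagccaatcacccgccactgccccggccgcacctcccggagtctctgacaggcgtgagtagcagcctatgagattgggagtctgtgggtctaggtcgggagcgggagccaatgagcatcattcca
Dsp: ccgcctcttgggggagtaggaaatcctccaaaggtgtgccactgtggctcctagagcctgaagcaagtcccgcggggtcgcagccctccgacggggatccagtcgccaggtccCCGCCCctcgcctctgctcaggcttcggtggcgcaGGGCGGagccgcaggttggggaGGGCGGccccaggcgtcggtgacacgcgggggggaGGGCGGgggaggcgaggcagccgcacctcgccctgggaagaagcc
Myo6: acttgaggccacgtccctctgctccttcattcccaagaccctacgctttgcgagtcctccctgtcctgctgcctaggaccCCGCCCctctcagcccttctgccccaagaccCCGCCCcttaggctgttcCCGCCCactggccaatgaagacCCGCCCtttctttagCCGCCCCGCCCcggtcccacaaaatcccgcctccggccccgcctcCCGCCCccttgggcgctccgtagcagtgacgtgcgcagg
The Wasf1 window is chr10:40883284-40883533 on the plus strand and the Fnbp1l window is chr3:122619715-122619964 on the minus strand. The Myh10 window is chr11:68691665-68691914, the Dsp window is chr13:38151044-38151293 and the Myo6 window is chr9:80164784-80165033, all on the plus strand. A GC box was present 1 time upstream of Wasf1, 3 times upstream of Fnbp1l, 4 times upstream of Dsp and 7 times upstream of Myo6, where 2 of the matches overlap. None was present upstream of Myh10 or Fscn1. At least 1 GC box was found in 32.7% of 32841 such windows of all genes, and 3 or more in 8.47%. The windows held 33 CpG in Fnbp1l, 22 in Dsp and 18 in both Myo6 and Fscn1, over the upper quartile of all windows (median 6, quartiles 2 and 16), and 15 in Wasf1 and in Myh10, which lies within the quartiles. Their GC content was 80.0%, 72.4%, 67.6%, 62.4%, 58.4% and 62.8% in that order, against a median of 52.4%. Espn has 3 annotated starts, whose windows held 3, 1 and 11 CpG and 1, 0 and 2 GC boxes. The table held 9 windows of 7 of the genes. The letters CCAAT (33.9% of all windows) occurred in 4 of the 9, upstream of Wasf1, Myo6, Myh10 (3 times) and of 1 Espn start, TATAA (22.8%) upstream of Fscn1, and TGACG (17.8%) upstream of Fscn1 and Myo6. Neither CACGTG (6.02%) nor TGANTCA (6.75%) was found in any of the 9, on either strand. A match of letters is a description of the window, not of a bound site.

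**Figure D1:**
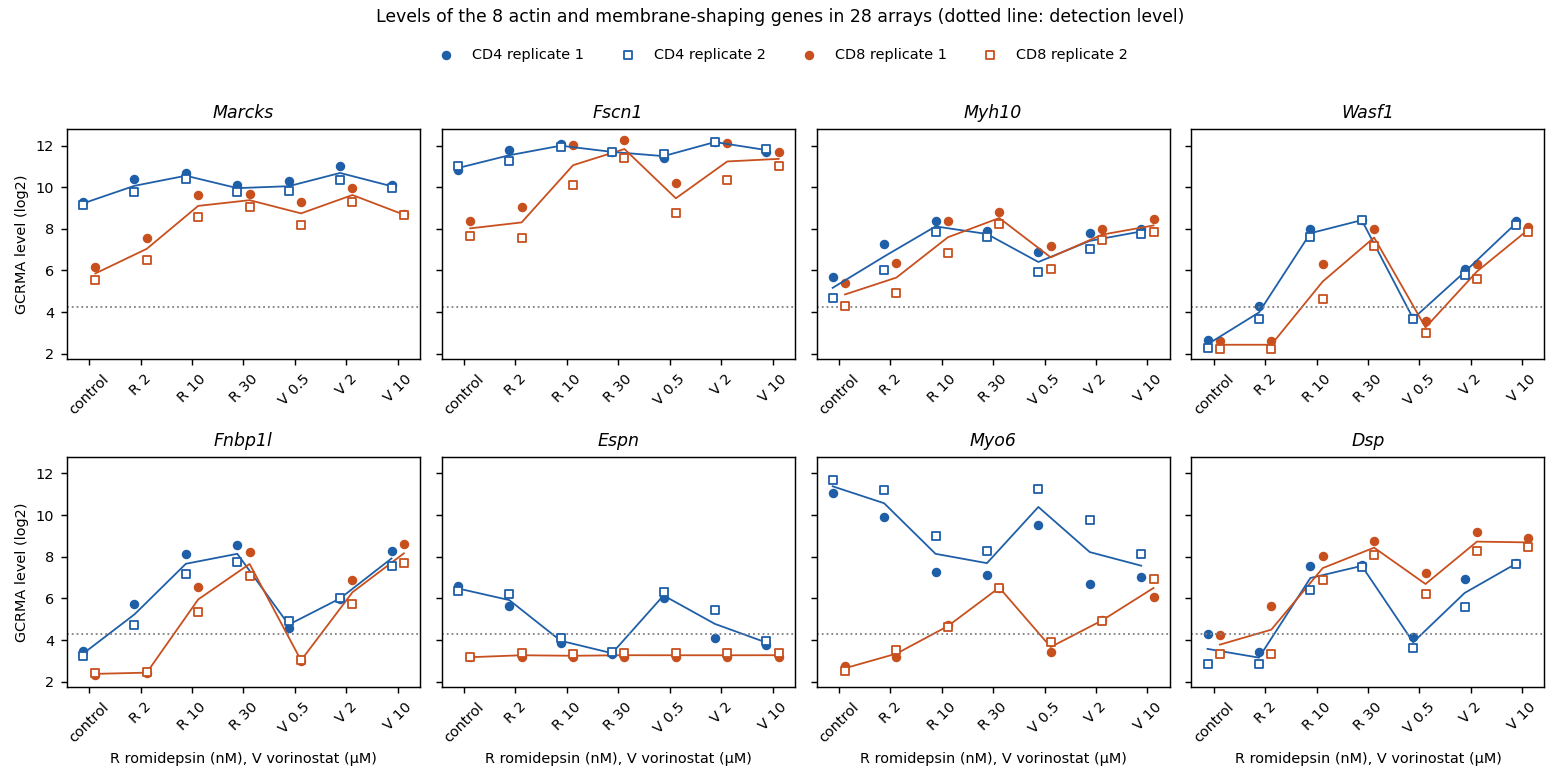
GCRMA level (log2, y axis) of each of the 8 genes on all 28 arrays, by condition (x axis; R, romidepsin in nM; V, vorinostat in µM). Blue is CD4 and orange is CD8, filled circles are replicate 1, open squares are replicate 2, lines join group means and the dotted line is the detection level of 4.27. Wasf1 and Fnbp1l climb with dose in both cell types, Espn lies over the dotted line only in CD4 arrays, and Myo6 falls toward 7.11 and 8.27 in CD4 cells while reaching 6.52 and 6.51 in CD8 cells with romidepsin at 30 nM.

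The members were chosen on control and middle-dose arrays, so every drug-against-control value below is a description with no test, and p-values come only from the top dose against the low dose of the same drug, on 16 arrays that did not choose them. Against the controls, both drug arrays lay above both control arrays for 5, 6 and 6 of the 8 genes in CD4 cells with romidepsin at 2, 10 and 30 nM. The shares of 9870 genes doing so were 8.51%, 22.6% and 28.2%. With vorinostat at 0.5, 2 and 10 µM the counts were 5, 6 and 6, beside 6.26%, 14.3% and 26.4% of all genes. In CD8 cells 2, 7 and 7 genes were above their controls with romidepsin, beside 4.67%, 14% and 23.9% of all genes, and 7 at each dose of vorinostat, beside 7.39%, 17.2% and 26.1%. Some of these counts at the low doses hold genes whose drug and control means both lay under the detection level. They were Wasf1, Fnbp1l and Myo6 in CD8 cells at 0.5 µM vorinostat, Myo6 in CD8 cells at 2 nM romidepsin, and Wasf1 in CD4 cells at both low doses. Espn and Myo6 made up the genes below their controls in CD4 cells. Both were below at the middle and top dose of each drug and 1 of them at each low dose. The shares of all genes below were 4.75%, 16% and 21.7% with romidepsin and 5.85%, 13.7% and 22.4% with vorinostat. No member lay below its controls in any CD8 drug group, beside 3.07%, 10.9% and 16.9% of all genes with romidepsin and 8.17%, 15.8% and 24.5% with vorinostat.

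Between the low and the top dose, 5 of the 8 genes changed in CD4 cells with romidepsin (limma, Benjamini-Hochberg adjusted p under 0.05, 9771 genes tested), where 13.2% of all genes did (8.43% higher and 4.75% lower). Wasf1, Fnbp1l and Dsp rose and Espn and Myo6 fell. The same 5 genes changed in the same directions in CD4 cells with vorinostat, where 10.4% of all genes were called (6.69% higher and 3.68% lower). In CD8 cells 7 genes rose with romidepsin, all but Espn, where 4.5% of all genes were called (3.77% higher and 0.737% lower), and 3 rose with vorinostat, Wasf1, Fnbp1l and Myo6, where 11.1% were called (7.44% higher and 3.7% lower). All 8 genes passed the filter on low values. Espn passed only through CD4 arrays at the low doses, the side from which it fell. Wasf1 passed through arrays at the top doses, to which it rose, with 1 CD4 array at romidepsin 2 nM. For these genes, being tested thus depended on the doses compared, though their calls held without the filter, as given below. The shares of all genes come from genes that passed the same filter. These 4 contrasts use different arrays but share the estimate of the spread and the replicate numbers, so they are not independent. The median change over all genes lay between 0.02 and 0.06. The counts lean on single arrays, in runs that had no block. Leaving out an array thus also brings part of the difference between the replicate numbers into the change. Without replicate 1 at romidepsin 30 nM, the median change over all genes in CD4 cells was 0.28, beside 0.06 in the main fit. Leaving out replicate 1 at romidepsin 30 nM left 3 members called in CD4 cells and 2 in CD8 cells. In CD8 cells 3 were left without replicate 2 at romidepsin 2 nM, and in CD4 cells 3 without replicate 1 at vorinostat 10 µM. With the replicate number as a block, 6 members were called in CD8 cells with vorinostat. Because whole populations were measured, fewer cells of a type and less RNA per cell cannot be told apart in any of these values.

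**Figure D2:**
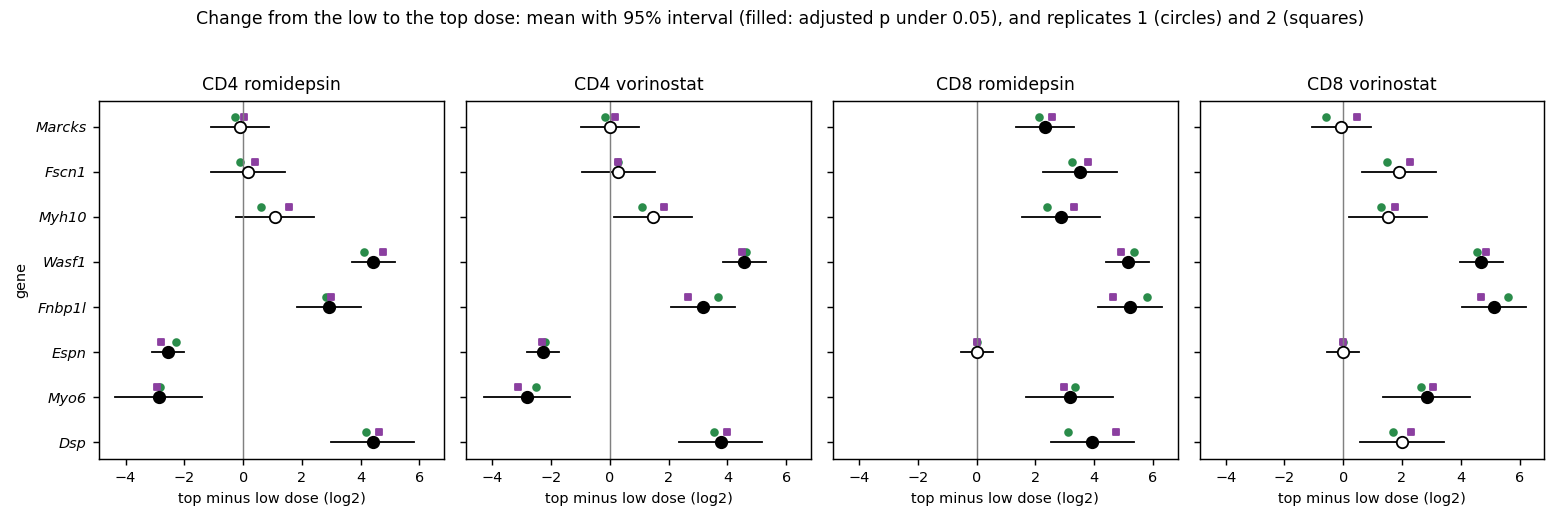
Change from the low to the top dose (log2, x axis) of each gene (y axis) in the 4 combinations of cell type and drug. Large circles are means with 95% intervals, filled where the adjusted p is under 0.05, and small green circles and purple squares are replicates 1 and 2. Wasf1 lies between 4.43 and 5.15 in all 4 panels, while Myo6 and Espn lie left of zero in the CD4 panels only.

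Marcks, the membrane anchor of PIP2 and actin, was high in CD4 cells from the start and low in untreated CD8 cells. CD4 control arrays read 9.29 and 9.15. With romidepsin at 2, 10 and 30 nM they read 10.38 and 9.75, 10.70 and 10.40, and 10.12 and 9.79, and with vorinostat at 0.5, 2 and 10 µM they read 10.28 and 9.82, 11.03 and 10.33, and 10.11 and 9.98. On the probe set used, all 12 CD4 drug arrays lay above both controls, by a mean of 0.73 to 1.46 per group. The largest means were at the middle doses. CD8 control arrays read 6.15 and 5.56, which is lower than any other group. With romidepsin CD8 arrays read 7.57 and 6.51, 9.64 and 8.56, and 9.68 and 9.07, and with vorinostat 9.30 and 8.19, 9.97 and 9.28, and 8.71 and 8.65. With vorinostat the CD8 mean was 2.88 above the controls at 0.5 µM, 3.77 at 2 µM and 2.82 at 10 µM, so the lowest dose already stood near the top dose. In CD8 cells Marcks rose 5.05-fold from 2 to 30 nM romidepsin (2.33 ± 0.45 on the log2 scale, adjusted p = 0.0181 by limma, 2.11 and 2.56 in replicates 1 and 2). From 0.5 to 10 µM vorinostat the difference was -0.06 with a 95% interval of -1.06 to 0.94. In CD4 cells it was -0.11 (-1.11 to 0.89) with romidepsin. The CD8 romidepsin call was lost without replicate 2 at 2 nM (adjusted p = 0.119), without replicate 1 at 30 nM (0.170) and with equal array medians (0.0618). Marcks has 7 probe sets, and the one used has a suffix for probes that can match other transcripts. The 5 over the detection level all read higher at 30 nM in CD8 cells, by 1.42 to 2.33. In CD4 cells at 30 nM romidepsin they did not agree on a rise over the controls. Those not used had means of 9.28, 9.20, 8.15 and 7.70, against control means of 9.24, 9.18, 7.39 and 7.62 in the same order.

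Fscn1, which encodes fascin, a bundler of filopodial actin best known from neurons and mature dendritic cells, lay far over the detection level in CD4 cells at every dose. CD4 control arrays read 10.83 and 11.01, romidepsin arrays 11.79 and 11.28, 12.06 and 11.92, and 11.70 and 11.69, and vorinostat arrays 11.41 and 11.57, 12.15 and 12.19, and 11.71 and 11.86. On the probe set used, every CD4 drug array lay above both controls, by group means of 0.57 to 1.25. CD8 control arrays read 8.39 and 7.66. With romidepsin CD8 arrays read 9.03 and 7.58, 12.02 and 10.08, and 12.28 and 11.38, and with vorinostat 10.18 and 8.75, 12.12 and 10.35, and 11.68 and 11.03. Replicate 1 lay above replicate 2 in all 7 CD8 groups, and only the 2 nM arrays overlapped the controls. Fscn1 rose 11.5-fold in CD8 cells from 2 to 30 nM romidepsin (3.52 ± 0.56, adjusted p = 0.00815, 3.25 and 3.80 by replicate). With vorinostat the change was 1.89 ± 0.56 (1.5 and 2.28 by replicate), with an adjusted p of 0.0568, or 3.54e-04 with the replicate block. In CD4 cells the changes were 0.16 (95% interval -1.09 to 1.41) with romidepsin and 0.29 (-0.96 to 1.54) with vorinostat. The CD8 romidepsin call was lost without replicate 2 at 2 nM (0.0522) or replicate 1 at 30 nM (0.0908). A second probe set of the gene over the detection level read higher by only 0.57 in that comparison. On it the CD4 controls read 6.16 and 6.53, and the CD4 arrays at 2 µM vorinostat lay between them, at 6.27 and 6.48. Markers of dendritic cells moved with Fscn1 in part. Of 9 such genes with a probe set, Itgax, Flt3, Xcr1 and Siglech stayed under the detection level on all 28 arrays. The log2 of the summed linear levels of all 9 was 8.78 to 10.40 at 2 nM and 10.64 to 10.69 at 30 nM in CD8 cells. In CD4 cells it was 11.12 to 12.22 against 9.64 to 10.72. With vorinostat at 0.5 and 10 µM it was 9.60 to 10.54 and 10.00 to 10.65 in CD8 cells, which overlap. The values in CD4 cells were 11.30 to 12.28 and 9.91 to 10.81. The part of these markers in the Fscn1 values was not tested.

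**Figure D3:**
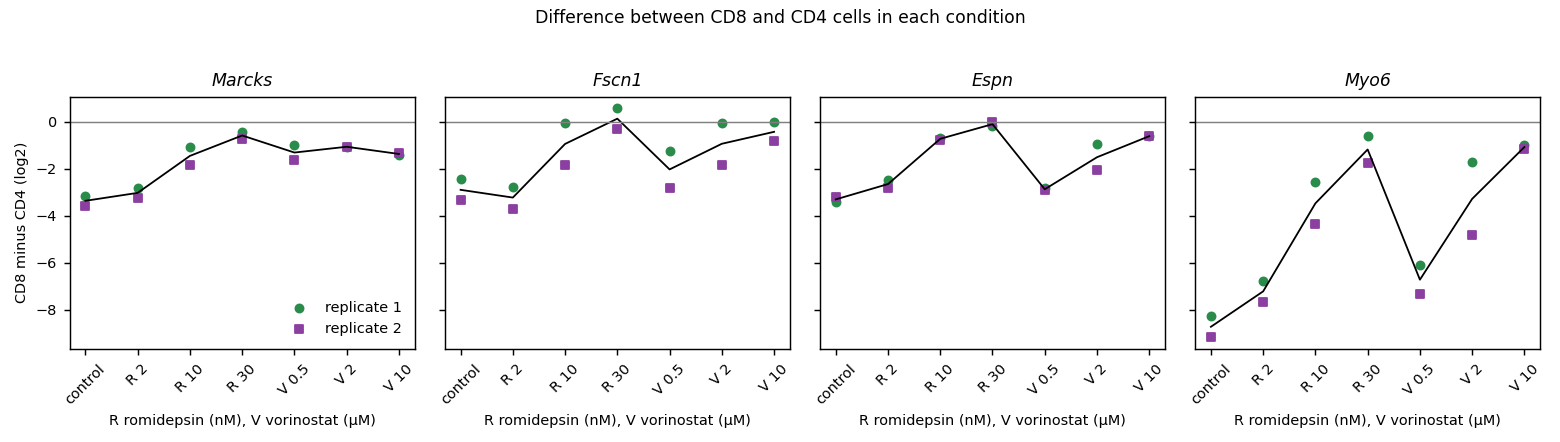
Level in CD8 minus level in CD4 (log2, y axis) for the 4 genes with the widest gap in the controls, by condition (x axis; R, romidepsin in nM; V, vorinostat in µM). Green circles are replicate 1, purple squares replicate 2 and the line their mean. The gap in Myo6 goes from -8.73 in the controls to -1.17 with romidepsin at 30 nM and -1.07 with vorinostat at 10 µM, and that in Marcks from -3.36 to -0.58 and -1.37. Myo6 in the CD8 control and low-dose arrays, and Espn in all CD8 arrays, lay under the detection level. Those gaps take the CD8 levels as read.

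The gap between the cell types shows the same levels another way. CD8 minus CD4, it was -3.36 for Marcks in the controls and -0.58 at 30 nM romidepsin, and for Fscn1 it went from -2.89 to 0.14. Whether the dose change differed between cell types was tested directly as CD8 minus CD4. For Fscn1 with romidepsin that difference was 3.36 ± 0.79 (3.34 and 3.38 by replicate) with an adjusted p of 0.167, or 0.00162 with the replicate block. For Marcks it was 2.45 ± 0.63 (2.37 and 2.52) with an adjusted p of 0.25, or 0.00548 with the block. With vorinostat the Fscn1 difference was 1.60 ± 0.79 (adjusted p = 1 by limma, 0.0462 with the block). Over all genes 13 of 9771 (0.133%) passed this test for romidepsin and 4 (0.0409%) for vorinostat, and 622 and 327 had an unadjusted p under 0.05.

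Espn, which encodes the bundler of stereocilia and microvilli espin, was over the detection level only in CD4 cells. CD8 arrays read 3.16 to 3.38 in all 7 groups, under the detection level. In CD4 controls it read 6.58 and 6.37. With romidepsin at 2, 10 and 30 nM CD4 arrays read 5.63 and 6.21, 3.84 and 4.09, and 3.33 and 3.4, and with vorinostat at 0.5, 2 and 10 µM 6.0 and 6.28, 4.12 and 5.43, and 3.78 and 3.98. The arrays at 10 and 30 nM romidepsin and at 10 µM vorinostat all lay under the detection level. From the low to the top dose Espn was at least 3.13-fold lower with romidepsin (-2.55 ± 0.24, adjusted p = 3.83e-04, -2.30 and -2.81 by replicate). With vorinostat it was at least 3.66-fold lower (-2.26 ± 0.24, adjusted p = 0.00102, -2.22 and -2.31 by replicate). Both calls held in every alternative run. The difference between cell types was 2.55 ± 0.35 with romidepsin (adjusted p = 0.0287) and 2.26 ± 0.35 with vorinostat. Both restate the CD4 fall, since CD8 arrays under the detection level at both doses could not fall, and neither is a test of a difference between the cell types.

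Wasf1 encodes WAVE1, a WAVE protein best known from neurons, and it went from under the detection level to a clear signal in both cell types. The CD4 controls read 2.66 and 2.26 and CD8 control arrays 2.61 and 2.25. With romidepsin CD4 arrays read 4.29 and 3.68, 7.99 and 7.59, and 8.40 and 8.43, and CD8 arrays 2.61 and 2.25, 6.29 and 4.65, and 7.98 and 7.18. With vorinostat CD4 arrays read 3.72 and 3.66, 6.06 and 5.79, and 8.37 and 8.16, and CD8 arrays 3.55 and 2.98, 6.29 and 5.61, and 8.09 and 7.84. At the low doses every array but 1 lay under the detection level, and CD8 cells at 2 nM read as their controls did. At the top doses all 8 arrays lay above 7. Wasf1 was at least 17.7-fold higher at 30 than at 2 nM in CD4 cells (4.43 ± 0.33, adjusted p = 1.11e-04, 4.11 and 4.76 by replicate) and at least 9.94-fold higher in CD8 cells (5.15 ± 0.33, adjusted p = 1.05e-04, 5.37 and 4.93). With vorinostat at 10 against 0.5 µM it was at least 16-fold higher in CD4 cells (4.58 ± 0.33, adjusted p = 1.28e-04) and at least 13-fold higher in CD8 cells (4.70 ± 0.33, adjusted p = 1.69e-04). All 4 calls held in every alternative run. The differences between cell types were 0.72 (95% interval -0.31 to 1.74) and 0.12 (-0.91 to 1.15).

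Fnbp1l encodes TOCA-1, an F-BAR protein that bends membranes and helps CDC42 to switch on N-WASP. The CD4 controls read 3.45 and 3.24 and CD8 control arrays 2.32 and 2.43. With romidepsin CD4 arrays read 5.73 and 4.73, 8.15 and 7.17, and 8.54 and 7.74, and CD8 arrays 2.42 and 2.45, 6.56 and 5.34, and 8.21 and 7.10. With vorinostat CD4 arrays read 4.58 and 4.89, 5.97 and 6.02, and 8.28 and 7.56, and CD8 arrays 3.00 and 3.05, 6.87 and 5.72, and 8.61 and 7.72. All 4 CD4 arrays at the low doses lay over the detection level and all 4 CD8 arrays under it. In CD4 cells Fnbp1l rose 7.51-fold with romidepsin (2.91 ± 0.49, adjusted p = 0.00490, 2.81 and 3.00 by replicate) and 9.06-fold with vorinostat (3.18 ± 0.49, adjusted p = 0.00489, 3.70 and 2.66). In CD8 cells it was at least 10.4-fold higher with romidepsin (5.22 ± 0.49, adjusted p = 5.11e-04) and at least 14.8-fold higher with vorinostat (5.14 ± 0.49, adjusted p = 5.06e-04). The CD4 calls were lost without replicate 1 at 30 nM (0.0528) and without replicate 1 at 0.5 µM (0.0509). The differences between cell types were 2.31 ± 0.69 (adjusted p = 0.393, 0.0278 with the block, CD8 low-dose arrays under the detection level) and 1.96 ± 0.69 (adjusted p = 1 by limma, 0.0859 with the block).

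Myh10, the heavy chain of non-muscle myosin IIB, lay over the detection level on every array and was low in the controls of both cell types. CD4 control arrays read 5.67 and 4.66, romidepsin arrays 7.29 and 6.05, 8.38 and 7.85, and 7.90 and 7.60, and vorinostat arrays 6.90 and 5.92, 7.80 and 7.04, and 7.98 and 7.76. CD8 control arrays read 5.40 and 4.30, romidepsin arrays 6.38 and 4.94, 8.36 and 6.83, and 8.79 and 8.24, and vorinostat arrays 7.17 and 6.09, 7.98 and 7.46, and 8.46 and 7.87. Every group but the CD8 arrays at 2 nM lay clear of its own controls. Replicate 1 lay above replicate 2 in all 14 groups. In CD8 cells Myh10 rose 7.25-fold from 2 to 30 nM (2.86 ± 0.59, adjusted p = 0.0266, 2.41 and 3.31 by replicate). That call was lost without replicate 2 at 2 nM (0.155), without replicate 1 (0.206) or replicate 2 (0.0578) at 30 nM, under quantile normalization (0.0628) and with equal array medians (0.0631). The other 3 changes passed only with the replicate block. They were 1.08 ± 0.59 in CD4 cells with romidepsin (adjusted p = 0.284, 0.0108 with the block), 1.47 ± 0.59 in CD4 cells with vorinostat (0.158, 0.00287) and 1.53 ± 0.59 in CD8 cells with vorinostat (0.134, 0.00226). The difference between cell types was 1.78 ± 0.84 with romidepsin (adjusted p = 0.835, 0.0313 with the block).

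Myo6, the minus-end directed myosin, ran in opposite directions in the cell types. CD4 control arrays read 11.05 and 11.70. With romidepsin CD4 arrays read 9.93 and 11.21, 7.28 and 9.0, and 7.11 and 8.27, and with vorinostat 9.53 and 11.24, 6.70 and 9.75, and 7.03 and 8.11. Replicate 2 was the higher array in all 7 CD4 groups. CD8 control arrays read 2.78 and 2.52. With romidepsin CD8 arrays read 3.16 and 3.53, 4.71 and 4.63, and 6.52 and 6.51, and with vorinostat 3.42 and 3.91, 4.97 and 4.91, and 6.05 and 6.95. No CD8 array reached the lowest CD4 array except 1 at the top dose of vorinostat. Myo6 fell 7.34-fold in CD4 cells with romidepsin (-2.88 ± 0.66, adjusted p = 0.0196, -2.82 and -2.94 by replicate) and 7.06-fold with vorinostat (-2.82 ± 0.66, adjusted p = 0.0250, -2.50 and -3.14). In CD8 cells it was at least 4.75-fold higher with romidepsin (3.17 ± 0.66, adjusted p = 0.0267, 3.36 and 2.98 by replicate) and at least 4.69-fold higher with vorinostat (2.83 ± 0.66, adjusted p = 0.0243, 2.63 and 3.04). The difference between cell types was 6.05 ± 0.94 with romidepsin (6.18 and 5.92 by replicate, adjusted p = 0.0516) and 5.65 ± 0.94 with vorinostat (5.14 and 6.17, adjusted p = 0.0897). With the replicate block these were 5.96e-05 and 1.06e-04. Both differences take the CD8 low-dose levels as read, though these lay under the detection level.

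The Myo6 calls are among the less secure. Each CD4 call was lost without replicate 2 of the low dose (0.114 and 0.145) or replicate 1 of the top dose (0.150 and 0.180). Each CD8 call was lost with any of its 4 arrays left out (0.0814 to 0.183 and 0.0666 to 0.144). Without a filter on low values, which adds genes to the correction, the adjusted p was 0.0526 in CD4 cells with vorinostat and 0.0503 in CD8 cells with romidepsin. Both further probe sets of Myo6 also read lower at the top dose in CD4 cells, with changes of -2.92 to -1.31. They lay under the detection level in those CD8 groups, so the CD8 rise rests on 1 probe set. With the mean of the 3 probe sets no Myo6 call was left. Markers of CD4 T cells moved the same way as Myo6 in CD4 cells but not in CD8 cells. The log2 of the summed levels of Cd4, Zbtb7b and Trat1 was 9.47 to 9.63 at 2 nM and 5.99 to 6.14 at 30 nM in CD4 cells. In CD8 cells, where Myo6 rose, it was 8.18 to 8.34 and 6.77 to 7.18. For Cd3e, Cd3d, Cd3g, Cd2 and Cd5 the sum was 14.33 to 14.71 and 12.08 to 13.41 in CD4 cells. In CD8 cells that sum was 14.13 to 14.78 and 12.55 to 14.21. The part of these markers in the Myo6 result was not tested.

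Dsp, which encodes desmoplakin, was near the detection level in the controls and reached 7.50 to 8.89 at the top doses. CD4 control arrays read 4.28 and 2.87, romidepsin arrays 3.44 and 2.87, 7.55 and 6.41, and 7.62 and 7.50, and vorinostat arrays 4.15 and 3.64, 6.93 and 5.58, and 7.70 and 7.64. CD8 control arrays read 4.25 and 3.31, romidepsin arrays 5.66 and 3.34, 8.02 and 6.88, and 8.77 and 8.10, and vorinostat arrays 7.19 and 6.19, 9.18 and 8.27, and 8.89 and 8.49. In CD4 cells the low doses overlapped the controls, while CD8 cells at 0.5 µM vorinostat already lay at least 5.35-fold above theirs. Dsp was at least 9.78-fold higher at 30 than at 2 nM in CD4 cells (4.41 ± 0.64, adjusted p = 0.00239, 4.18 and 4.63 by replicate) and 15.3-fold higher in CD8 cells (3.94 ± 0.64, adjusted p = 0.00880, 3.11 and 4.76). With vorinostat it was at least 10.5-fold higher in CD4 cells (3.77 ± 0.64, adjusted p = 0.00674, 3.55 and 3.99). In CD8 cells the change was 2.00 ± 0.64 (1.69 and 2.30 by replicate) with an adjusted p of 0.0741, or 0.00234 with the block. Calls were lost without replicate 1 at 30 nM in CD8 cells (0.0917) and without replicate 1 at 10 µM in CD4 cells (0.0544). The differences between cell types, -0.47 with romidepsin (95% interval -2.48 to 1.54) and -1.78 with vorinostat (-3.78 to 0.23), did not pass (adjusted p = 1 in limma for both). A second probe set of Dsp moved the same way in all 4 comparisons, by 2.21 to 5.35.

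Epithelial markers moved with Dsp in part. Of 7 such genes Krt8, Krt5, Krt14 and Cldn4 stayed under the detection level on all 28 arrays, and Epcam, Cdh1 and Krt18 reached it. The log2 of the summed levels of all 7 was 5.67 to 6.71 at 2 nM and 8.40 to 8.58 at 30 nM in CD8 cells, and 7.61 to 8.20 against 8.99 to 9.09 in CD4 cells. With vorinostat it was 5.60 to 6.14 at 0.5 µM and 8.45 to 8.62 at 10 µM in CD8 cells, and 6.64 to 7.84 against 8.23 to 8.47 in CD4 cells. Dsp read 7.19 and 6.19 in CD8 cells at 0.5 µM vorinostat, and the marker sum of the CD8 controls was 5.59 to 6.24. The part of these markers in the Dsp values was not tested.

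Ordered by group mean, most neighbouring groups did not differ beyond their 2 arrays. Of the 13 neighbouring pairs, 10 overlapped for Marcks and for Fscn1, 13 for Myh10, 7 for Wasf1, 9 for Fnbp1l and for Espn, 8 for Myo6 and 11 for Dsp. Vorinostat at 2 µM in CD4 cells was the highest group for Marcks and Fscn1, and the CD8 controls the lowest for both. The top places of Wasf1 went to romidepsin at 30 nM and vorinostat at 10 µM in CD4 cells, which did not overlap (8.40 and 8.43 against 8.37 and 8.16). In Myo6 all 7 CD4 groups stood above all 7 CD8 groups, with a clear step between vorinostat at 10 µM in CD4 cells and romidepsin at 30 nM in CD8 cells. In Dsp the 3 highest groups were CD8 cells, at 2 and 10 µM vorinostat and 30 nM romidepsin.

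Over the 14 group means, which share their arrays, batches and doses, Wasf1 and Fnbp1l had a Pearson correlation of 0.977, Marcks and Fscn1 of 0.931, and Espn and Myo6 of 0.870. Espn and Dsp had the lowest, -0.673. These correlations are descriptions, with no p-value. Of 9862 other genes, those with the profile most like Wasf1 were Cttnbp2nl (0.995), Rb1 (0.995) and Ublcp1 (0.988), and those most like Fnbp1l were Eaf2 and Mpzl1 (0.986 each) and Plagl1 (0.983). Nearest to Marcks were Tesc (0.970), Rflnb (0.960) and Chchd10 (0.956), and nearest to Fscn1 Aplp1 (0.976), Iffo2 (0.971) and Ier5 (0.970). Nearest to Myh10 were Fbxo2 (0.989), Septin4 (0.979) and Klf4 (0.967), and nearest to Dsp Dmxl2 (0.969), Bmf (0.968) and Cd69 (0.964). Espn was most like Tnfrsf25 (0.994), Piwil2 (0.987) and Cst6 (0.987), though Espn lay over the detection level on 7 of 28 arrays and the Cst6 group means of 2.38 to 3.69 all lay under it, so this order rests in large part on values not above background. Myo6 was most like Mcf2l (0.982), Castor1 (0.980) and Anks1 (0.974).

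**Figure D4:**
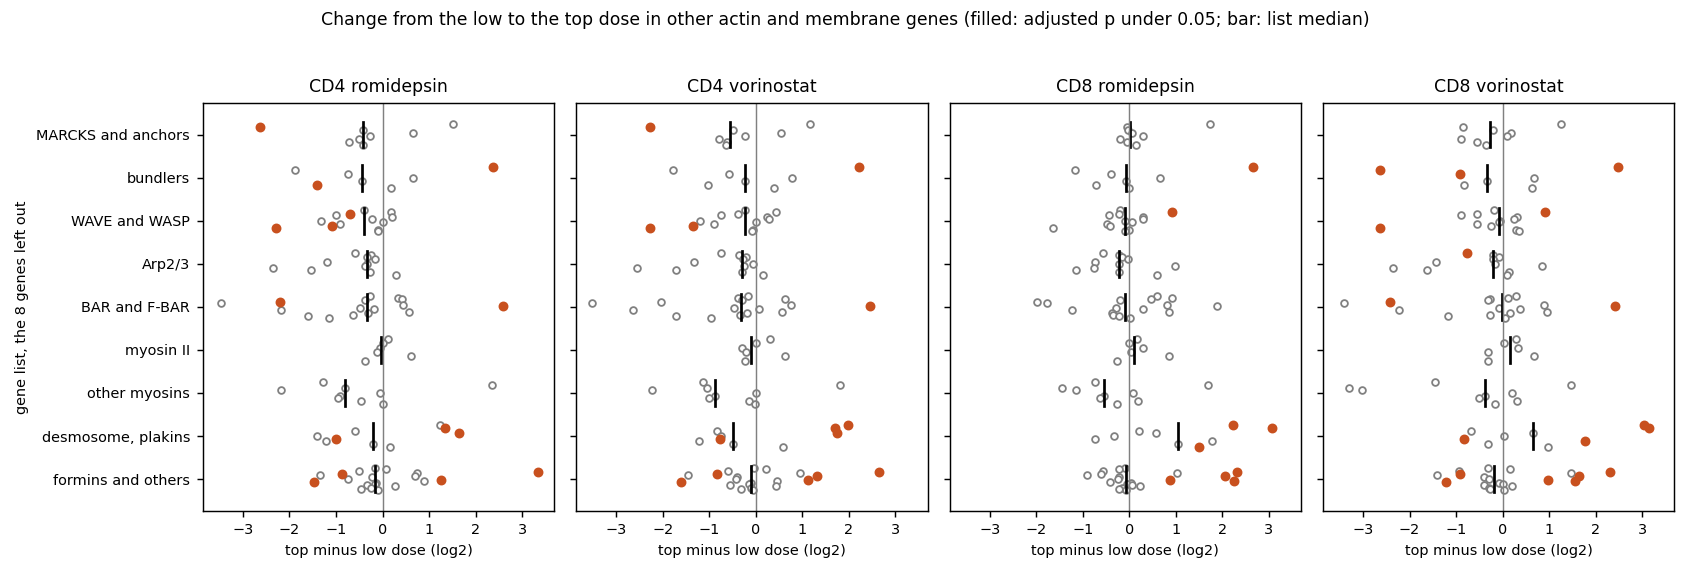
Change from the low to the top dose (log2, x axis) of the 99 tested genes of 9 actin and membrane lists (y axis), with the 8 genes left out, in the 4 combinations of cell type and drug. Each point is a gene, filled orange where the adjusted p is under 0.05, and the bar is the list median. The desmosome list has the highest median in CD8 cells, 1.06 with romidepsin and 0.66 with vorinostat.

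Of the 135 other genes on 9 lists of the same machinery, 124 had a probe set and 99 were tested. In CD4 cells 6 rose (6.06%, beside 8.43% of all genes) and 9 fell (9.09%, beside 4.75%) with romidepsin, with a median change of -0.31 beside 0.06 over all genes tested, and 8 rose (8.08%, beside 6.69%) and 6 fell (6.06%, beside 3.68%) with vorinostat, with a median of -0.25 beside 0.05. In CD8 cells 9 rose (9.09%, beside 3.77%) and none of the 99 fell with romidepsin (72 genes of all tested, or 0.737%, fell), with a median of -0.06 beside 0.02. With vorinostat 10 rose (10.1%, beside 7.44%) and 8 fell (8.08%, beside 3.7%), with a median of -0.16 beside 0.03. With the replicate block the counts were 17 and 44, 19 and 41, 24 and 15, and 22 and 29. Over all 9771 genes the block gave 3158 and 2460, 2889 and 2300, 2216 and 1966, and 2898 and 2447. Leaving out single arrays brought the totals down to 4 in CD4 cells with romidepsin (without replicate 1 at either dose), 2 in CD4 cells with vorinostat (without replicate 1 at 0.5 µM), 1 in CD8 cells with romidepsin (without replicate 1 at 2 nM) and 3 in CD8 cells with vorinostat (without replicate 1 at 0.5 µM). Of 45 calls of the named list genes, 7 held in every alternative.

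Those 7 calls belonged to 4 genes. Basp1, a MARCKS-like PIP2-binding protein, fell in CD4 cells by 2.62 ± 0.33 with romidepsin and by 2.28 ± 0.33 with vorinostat (limma adjusted p = 0.00136 and 0.00418). Pkp2, an armadillo protein of the desmosomal plaque that binds desmoplakin, rose in CD8 cells by 3.06 ± 0.34 and 3.14 ± 0.34 (0.00133 and 8.88e-04). Jup, which encodes plakoglobin of the same plaque, rose in CD8 cells with vorinostat by 3.04 ± 0.47 (0.00471). Fmnl2, a formin that elongates filaments, rose in CD4 cells by 3.35 ± 0.37 and 2.64 ± 0.37 (8.43e-04 and 0.00389).

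Of 9 genes tested on the desmosome list, 2 rose in CD4 cells with romidepsin (22.2%, beside 8.43% of all genes) and 3 with vorinostat (33.3%, beside 6.69%), and 3 rose in CD8 cells with each drug (33.3%, beside 3.77% and 7.44%). The list also had 1 fall (11.1%, beside 4.75%, 3.68% and 3.7% of all genes) in every comparison but CD8 romidepsin. It was Macf1, a plakin that links actin and microtubules, named because of this count, with changes of -1.01 ± 0.20 and -0.77 ± 0.20 in CD4 cells and -0.82 ± 0.20 in CD8 cells with vorinostat. With the replicate block the list had 3 rises and 4 falls in CD4 cells with each drug, 6 and 1 in CD8 cells with romidepsin and 5 and 2 with vorinostat. Over all 9771 genes the block gave 3158 rises and 2460 falls in CD4 cells with romidepsin and 2889 and 2300 with vorinostat. In CD8 cells it gave 2216 and 1966 with romidepsin and 2898 and 2447 with vorinostat. The third riser in CD8 cells with romidepsin was Krt18, with both group means under the detection level. Beside Pkp2 and Jup, Pkp4 rose in CD4 cells by 1.64 ± 0.32 and 1.75 ± 0.32, and Dst, a plakin, rose by 1.78 ± 0.45 in CD8 cells with vorinostat. Among 7 bundlers tested Pls1, or plastin 1, rose in all 4 comparisons, by 2.21 to 2.66, and Lcp1, the plastin of leukocytes, fell by 2.64 ± 0.58 in CD8 cells with vorinostat. Pls1 was the only rise on that list (14.3%, beside 8.43% and 6.69% of all genes in CD4 cells and 3.77% and 7.44% in CD8 cells). The falls were 14.3% in CD4 cells with romidepsin (beside 4.75%) and 28.6% in CD8 cells with vorinostat (beside 3.7%). Of 20 formins, profilins and filament-end proteins, 10% and 15% rose in CD4 cells with romidepsin and vorinostat, and 20% in CD8 cells with each drug. The falls were 10% in each comparison but CD8 romidepsin, where none fell (beside 0.737% of all genes). Pfn2 rose in CD8 cells by 2.06 ± 0.36 and 1.64 ± 0.36 and Gsn, the severing protein gelsolin, by 2.26 ± 0.41 and 1.56 ± 0.41. Capg, a capping protein, fell by 1.48 ± 0.27 and 1.60 ± 0.27 in CD4 cells and by 1.21 ± 0.27 in CD8 cells with vorinostat. Each of these calls was lost with at least 1 of the 4 arrays of its comparison left out.

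Of 13 WAVE and WASP genes tested, none rose in CD4 cells, beside 8.43% of all genes with romidepsin and 6.69% with vorinostat. There 3 fell with romidepsin (23.1%, beside 4.75%) and 2 with vorinostat (15.4%, beside 3.68%). Wipf1, which stabilises WASP, fell in CD4 cells by 2.29 ± 0.44 with romidepsin and 2.28 ± 0.44 with vorinostat. In CD8 cells Cyfip2, a WAVE complex subunit, rose by 0.92 ± 0.19 and 0.91 ± 0.19, and Wipf1 fell by 2.63 ± 0.44 with vorinostat. These were the only calls on the list in CD8 cells, and each is 7.69% of it. Of all genes 3.77% rose with romidepsin and 7.44% with vorinostat, and 3.7% fell with vorinostat. Of 11 Arp2/3 genes 1 passed in any comparison, Actr3, which fell by 0.77 ± 0.22 in CD8 cells with vorinostat (9.09%, beside 3.7% of all genes). Of 16 BAR and F-BAR genes Fer rose by 2.60 ± 0.61 and 2.45 ± 0.61 in CD4 cells and by 2.42 ± 0.61 in CD8 cells with vorinostat, and Srgap3 fell by 2.20 ± 0.63 in CD4 cells with romidepsin and by 2.42 ± 0.63 in CD8 cells with vorinostat. Each of these is 6.25% of the list, beside 8.43%, 6.69% and 7.44% of all genes for the rises and 4.75% and 3.7% for the falls. None of 6 myosin II chains and none of 9 unconventional myosins passed by limma in the 4 comparisons. Of all genes 13.2% and 10.4% passed in CD4 cells with romidepsin and vorinostat, and 4.5% and 11.1% in CD8 cells. Unadjusted p-values under 0.05 were held by 1774 to 2659 genes of all 9771. Each call of a gene named in this paragraph was also lost with at least 1 array left out. With the replicate block the myosin II chains had 1 rise and 1 fall in CD4 cells and 2 rises in CD8 cells with each drug, and the unconventional myosins 1 rise with 4 falls in CD4 cells and 1 rise with 3 falls in CD8 cells with each drug. The Arp2/3 genes then had 6, 5, 2 and 4 falls and 1 rise, in CD8 cells with romidepsin. The WAVE and WASP genes had 7, 5, 2 and 4 falls and 0, 1, 1 and 1 rises, and the BAR and F-BAR genes 8, 8, 3 and 5 falls and 2, 4, 5 and 4 rises, in the order CD4 romidepsin, CD4 vorinostat, CD8 romidepsin and CD8 vorinostat. Over all 9771 genes the block gave 2460, 2300, 1966 and 2447 falls and 3158, 2889, 2216 and 2898 rises in that order.

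Of the relatives of the members that were tested, Marcksl1, Wasf2, Fnbp1, Trip10, Myh9 and Myh14 gave no call without the block in these 4 comparisons, while the plakins Dst and Macf1 were called as given above. The list genes Basp1, Pls1 and Lcp1, linked to members by function, were also called as given above. Wasf2, which encodes the WAVE protein of blood cells, lay at 10.91 to 11.40 in the low and top dose groups, with changes of -0.40 to -0.19. Myh9, the IIA heavy chain, lay at 12.36 to 12.82 with changes of 0.13 to 0.29, and Fnbp1 at 9.60 to 10.39 with changes of -0.26 to 0.60. Marcksl1 differed by 1.52, 1.17, 1.74 and 1.26 in the order above, with adjusted p-values of 0.530 to 0.687, and of 2.23e-04 to 7.83e-04 with the replicate block. Trip10 differed by -0.38 to 0.91 (adjusted p of 0.849 to 0.996 in limma). Myh14 read the same at both doses in 3 of the comparisons. With the block Wasf2 passed in CD4 cells with romidepsin (0.0282) and Fnbp1 in CD8 cells with both drugs (0.00300 and 0.0485).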

How the data were processed

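Total RNA from 28 samples of mouse T cells was measured on Mouse430_2 arrays, 2 in each of 14 groups. The deposited values are on a log scale read here as log2, made by the authors with GCRMA, per the submitters' processing notes; the base, version and settings are not given in the sources used here. The table was used as deposited, without further normalization.

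Of 45101 probe sets, 34945 name 1 gene in the array annotation, 932 several, 9160 none, and 64 are controls. The probe set with the highest mean stood for a gene, giving 18193 genes. The detection level was 4.27, and the 9771 genes over it on at least 2 of 16 arrays were tested with limma 3.58.1 in R 4.3.3 (lmFit, eBayes, Benjamini-Hochberg, threshold 0.05). The fit held the 8 low-dose and top-dose groups only, since the control and middle-dose arrays chose the genes, with no block and 8 residual degrees of freedom. It was tested on simulated data. In all text ± is the standard error of a difference.

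The genes and the lists were chosen with earlier results of these data known. Named list genes are those called in a dose comparison, at most 4 in a list by size, and the relatives of the 8 genes; the 3 most alike genes go by Pearson correlation of 14 group means. "At least" folds set the brighter group mean against the detection level. The alternatives were the replicate number as a block, all 28 arrays, quantile normalization, equal array medians, no filter, the mean of the probe sets, and each array left out in turn. The run on all 28 arrays takes in the control and middle-dose arrays, which chose the genes. The runs with an array left out had no block. Nothing in the labels ties arrays that share a replicate number to each other. The deviations of arrays with equal numbers from their group means correlated at 0.722 to 0.958 (median 0.801) over 91 pairs of groups, and no 2 arrays were identical. With 2 arrays a group, their number limits the precision.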

Additional observations from a re-analysis of the deposited data

Results flagged for a closer look

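Myo6 changed in opposite directions in CD4 and CD8 cells between the low and the top dose. The CD8 change minus the CD4 change was 6.05 ± 0.94 on the log2 scale with romidepsin and 5.65 ± 0.94 with vorinostat. The CD8 low-dose groups lay under the detection level, so the CD8 part is known only as at least 4.75-fold and at least 4.69-fold. Every CD4 replicate went down and every CD8 replicate went up. The limma test of the difference gave adjusted p-values of 0.0516 and 0.0897, and 5.96e-05 and 1.06e-04 with the replicate block. For Espn the difference with romidepsin was 2.55 ± 0.35 (adjusted p = 0.0287, limma), but its CD8 arrays lay under the detection level at both doses and could not fall, so this value restates the CD4 fall.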

How the results depend on the processing

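With the replicate block 5618, 5189, 4182 and 5345 of 9771 genes were called in the order CD4 romidepsin, CD4 vorinostat, CD8 romidepsin and CD8 vorinostat, against 1288, 1014, 440 and 1089 without it, and no call of a member was lost. Quantile normalization gave 2335, 1952, 1018 and 2001, equal array medians 2130, 1846, 916 and 1873, and all 28 arrays 811 in CD8 cells with romidepsin. For the difference between cell types the block gave 1033 genes for romidepsin and 206 for vorinostat against 13 and 4, all 28 arrays 97 and 25, quantile normalization 37 and 12, no filter 31 and 10, and for vorinostat equal medians 9 and the mean of probe sets 2. Leaving out an array gave 355 to 840, 178 to 555, 86 to 345 and 205 to 571 genes in the 4 comparisons, and 2 to 11 and 1 to 3 for the differences. Of the genes called in CD8 cells with romidepsin 83.6% were higher, 64.3% after quantile normalization, 61.9% with equal medians, 73.9% with all 28 arrays and 53.0% with the block.

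Member calls numbered 5, 5, 7 and 3. With the block 6 passed in CD8 cells with vorinostat, where 2898 of all 9771 genes were called higher and 2447 lower. For the difference between cell types the block gave 6 with romidepsin and 3 with vorinostat, against 1 and 0. The 1 was Espn, which is also among the 6 and the 3, and its difference only restates the CD4 fall. For those differences all 28 arrays gave 2 and 1, equal medians 2 and 2, and quantile normalization and no filter 1 each with vorinostat. With an array left out the calls numbered 3 to 5, 3 to 5, 2 to 6 and 2 in the 4 comparisons, and 0 to 1 and 0 for the differences. Of 20 called member changes, 57 of 80 runs with an array left out kept the call. The list genes called were 15, 14, 9 and 18, with the block 61, 60, 39 and 51, after quantile normalization 28 each in the CD4 comparisons, with equal medians 24 each there, and with an array left out 4 to 9, 2 to 7, 1 to 7 and 3 to 10. The Myo6 difference with romidepsin passed with quantile normalization (limma adjusted p = 0.0142) and equal medians (0.00597). It also passed with all 28 arrays (0.0202), but there the arrays that chose the genes help to set the spread, so that run is no separate support. Each of these takes CD8 low-dose levels under the detection level as read. Dsp in CD8 cells with vorinostat passed with the mean of probe sets (1.40, 0.0159). With that mean the Myo6 changes were -2.37, -2.44, 1.25 and 1.22 (0.0781, 0.0869, 0.511 and 0.409).

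Signs turned only in uncalled values. Marcks in CD4 cells with vorinostat was 0.0127 after quantile normalization and 0.00204 with equal medians, and Espn in CD8 cells -0.0678 and -0.0999 after quantile normalization. With an array left out Marcks ran from -0.43 to 0.21 and -0.23 to 0.23 in CD4 cells and -0.62 to 0.50 in CD8 cells with vorinostat, Fscn1 from -0.10 to 0.42 in CD4 cells with romidepsin, and Espn from -0.11 to 0.11 in CD8 cells with either drug. The differences between cell types ran from -1.63 to 0.69 for Dsp with romidepsin, and with vorinostat from -0.47 to 0.60 for Myh10, -0.62 to 0.50 for Marcks and -0.16 to 0.41 for Wasf1. Fnbp1 in CD8 cells with vorinostat was -0.0457 with the mean of probe sets. With an array left out Marcksl1 in CD8 cells with vorinostat ran from -0.0761 to 2.60, Trip10 from -0.76 to 1.43, -1.74 to 0.98 and -1.08 to 1.30 (CD4 romidepsin, CD4 vorinostat, CD8 vorinostat), Wasf2 from -0.56 to 0.0767, -0.60 to 0.22 and -0.62 to 0.25 (CD4 vorinostat, CD8 romidepsin, CD8 vorinostat), and Myh14 from -1.62 to 1.62, and to -1.59 and 1.64 in CD8 cells with vorinostat. Myh14 was -0.0229, -0.0047, 0.00805 and -0.0131 after quantile normalization and -0.0207, 0.00223 and 0.0129 with equal medians.

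Signal over background limits Wasf1, Fnbp1l, Dsp, Espn and Myo6 (in CD8 cells), whose changes are bounds where a group lay under the detection level. A lone array left in a group was assumed to vary like the other groups. The median 95% interval reached 1.00 to each side, and 0.377 with the block.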
